A study of Mus musculus with 6 samples.

Results

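Macrophage and osteoclast lineage genes were followed between the anterior and the posterior region of the mouse palate. The set holds 35 genes chosen by name, of which 22 are markers of macrophages, 12 belong to osteoclasts and 1 is the growth factor Csf1. All 35 were matched by symbol to an Ensembl gene of the count tables, which list 56691 genes. Bulk RNA-seq was made from microdissected palatal shelves of C57BL/6J mouse embryos at embryonic day (E) 14.0, with 3 anterior and 3 posterior libraries, each taken from the 1/3 of the shelf at that end. No mutation or treatment is given for either region. The labels do not say whether a library came from a single embryo or a pool, so p-values measure the spread between these libraries, which may be technical. The question asked of the set was whether macrophage genes and osteoclast genes share a regional direction.

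Macrophages and osteoclasts descend from a common myeloid lineage that depends on the receptor CSF1R and its ligands CSF1 and IL34. Macrophages settle in embryonic tissues, where they take up debris and dying cells, whereas osteoclasts form where bone is laid down. An osteoclast arises when the ligand RANKL (gene Tnfsf11) binds the receptor RANK (Tnfrsf11a) on a precursor, the transcription factor NFATC1 switches on, and precursors fuse into a multinucleated cell. That cell attaches to bone through the beta-3 integrin, secretes acid through a vacuolar proton pump and digests the matrix with cathepsin K and other enzymes. The bone of the hard palate forms in the anterior part of the palate.

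Promoter sequences are shown for Acp5 and Ctsk, a pair of osteoclast enzyme genes that were higher in opposite regions. Both come from the RefSeq table for GRCm38.p6, which covers 250 bases before and 50 after a start site and holds a window for 24 of the 35 genes. Csf1r, Adgre1, C1qa, Tyrobp, Spi1, Dcstamp, Ocstamp, Atp6v0d2, Mmp9, Itgb3 and Nfatc1 have no window in it. Acp5 has 3 windows and Ctsk has 1. The sequences run 5′ to 3′ on the gene's strand, and the capitals mark matches on either strand to a PU.1 motif (GAGGAAG), an M-box of MITF (TCATGTG) or an NFAT motif (TGGAAA), factors known to act on osteoclast genes.
Acp5, chr9:22130549-22130848, minus strand: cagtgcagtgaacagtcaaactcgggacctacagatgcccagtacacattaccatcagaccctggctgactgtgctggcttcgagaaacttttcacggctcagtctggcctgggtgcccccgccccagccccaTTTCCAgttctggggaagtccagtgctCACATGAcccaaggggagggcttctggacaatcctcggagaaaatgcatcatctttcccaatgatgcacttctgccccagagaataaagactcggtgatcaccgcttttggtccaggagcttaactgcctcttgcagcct
Ctsk, chr3:95498960-95499259, plus strand: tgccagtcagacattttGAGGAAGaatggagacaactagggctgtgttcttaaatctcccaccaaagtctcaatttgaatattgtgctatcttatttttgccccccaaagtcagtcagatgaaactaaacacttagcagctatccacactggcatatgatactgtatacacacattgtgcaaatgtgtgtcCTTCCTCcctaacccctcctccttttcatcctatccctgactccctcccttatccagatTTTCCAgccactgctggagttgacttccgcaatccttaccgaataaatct
The Acp5 window held 1 M-box match and 1 NFAT match, and the other Acp5 windows (chr9:22131816-22132115 and chr9:22135697-22135996) held no match to these motifs. The Ctsk window held 2 PU.1 matches and 1 NFAT match. None of the 4 windows held an AP-1 match (TGANTCA). Among all 32851 windows of the table, 13.6% held the PU.1 letters, 3.77% the M-box, 7.81% the AP-1 letters and 21.4% the NFAT letters. No 2 of these motifs overlapped in the windows shown. A match describes the letters and is not a binding site.

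Reads counted on genes ranged from 11378736 to 15172733 per library. Values are given as CPM, counts divided by library sizes that edgeR's TMM factors had scaled, and 3 counts, the limit that a count of 0 allows, corresponded to between 0.198 and 0.264 CPM. edgeR's quasi-likelihood test was run over 15673 genes, each of which reached 10 counts in 3 or more libraries. A gene was called at a Benjamini-Hochberg adjusted p-value below 0.05, and log2 fold changes are posterior over anterior, so that negative values are higher in the anterior palate. SE stands for the standard error implied by the test, the absolute log2 fold change over the square root of edgeR's F statistic. Of the genes tested, 7.46% were called, 2.59% toward the anterior and 4.87% toward the posterior palate. Posterior replicates 2 and 3 stood apart, with 6.12% and 5.94% of reads mapping to several places against 8.45% to 8.77% in the other 4 libraries. Mitochondrial genes took 0.973% and 1.14% of their counts against 2.70% to 2.97%. A term for this grouping (the library-group term) and leaving out each library were run as alternatives. The grouping lies within the posterior region, so with this term posterior replicate 1 alone stands against the 3 anterior libraries. Log2 fold changes with the library-group term therefore rest on 1 posterior library. In bulk tissue, fewer cells of a type and less RNA per cell cannot be told apart.

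The osteoclast genes split between the regions. Of the 12 genes, 5 were called toward the anterior palate (Dcstamp, Ocstamp, Atp6v0d2, Acp5 and Mmp9) and 2 toward the posterior palate (Ctsk and Itgb3). Nfatc1, Tcirg1, Slc9b2 and Tnfrsf11a were tested and not called, and Calcr was too low to be tested. Among all genes tested 2.59% were called toward the anterior and 4.87% toward the posterior palate. Dcstamp, Ocstamp and Atp6v0d2 passed the low-count filter through their anterior libraries alone, so the share of called genes among those tested is no measure of the osteoclast genes as a whole. When every library had to reach 10 counts, 4 osteoclast genes were called, Acp5 and Mmp9 toward the anterior and Ctsk and Itgb3 toward the posterior palate, against 6.01% of all genes.

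The genes of cell fusion were nearly absent from the posterior libraries. Dcstamp (ENSMUSG00000022303.10, chromosome 15, 39745930 to 39760938) encodes a transmembrane protein that osteoclast precursors need for fusion. It had 15, 22 and 12 counts in anterior replicates 1, 2 and 3 and 0 counts in every posterior library. Against the limit of 3 counts over the posterior libraries together, Dcstamp was at least 17.7-fold higher in the anterior palate (adjusted p = 0.00628, edgeR's quasi-likelihood test). Ocstamp (ENSMUSG00000027670.5, chromosome 2, 165393760 to 165400405), which encodes a related fusion protein, had 22, 19 and 11 counts in the anterior libraries and 2, 0 and 0 in the posterior libraries. The ratio of its summed counts, scaled for depth, was 28.2, with an exact 95% counting interval from 7.43 to 239.3 that covers counting error only. Its log2 fold change was -4.56 (SE 0.75, adjusted p = 0.0114 in edgeR). Without anterior replicate 1 the log2 fold change was -4.37 and the adjusted p 0.0522, and without anterior replicate 2 they were -4.53 and 0.0498, so the call lies near the threshold with fewer libraries. With the library-group term, which leaves posterior replicate 1 alone, the log2 fold change was -3.09.

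Atp6v0d2 (ENSMUSG00000028238.7, chromosome 4, 19876841 to 19922605) encodes the d2 subunit of the proton pump, which is also needed for fusion. Its counts were 55, 78 and 77 in the anterior and 2, 0 and 0 in the posterior libraries, so the regions did not overlap and the count of 2 lay in posterior replicate 1. The ratio of depth-scaled counts was 114.0 (exact 95% counting interval 31.2 to 947.5). Its log2 fold change was -6.58 (SE 0.64, adjusted p = 0.00118 in edgeR), and it was -5.11 with the library-group term. By contrast, Tcirg1, the a3 subunit of the same pump in osteoclasts, had 17.9, 16.2 and 20.2 CPM in the anterior and 12.4, 18.2 and 20.0 CPM in the posterior libraries. The regions overlapped for Tcirg1, with a log2 fold change of -0.10 (SE 0.19, adjusted p = 0.765 in edgeR), which was -0.54 with the library-group term. The d2 subunit was thus called between the regions and the a3 subunit was not, and the difference between these genes was not tested.

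**Figure D1:**
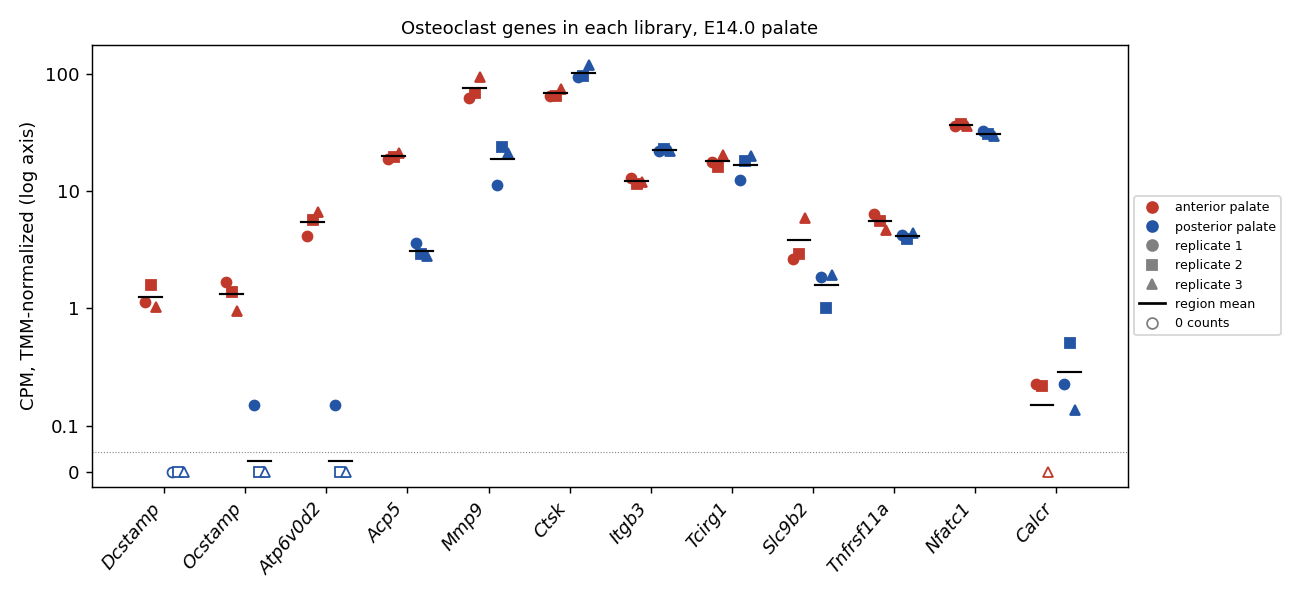
Normalized level (CPM, log axis, with 0 drawn below a dotted line) of the 12 osteoclast genes in each of the 3 anterior and 3 posterior libraries, with the region mean as a bar. Dcstamp, Ocstamp, Atp6v0d2, Acp5 and Mmp9 lie higher in the anterior libraries, whereas Ctsk and Itgb3 lie higher in the posterior libraries, and open symbols stand for 0 counts.

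The enzymes that act on bone matrix did not share a direction. Acp5 (ENSMUSG00000001348.16, chromosome 9, 22126727 to 22135711) encodes tartrate-resistant acid phosphatase, the standard histological stain for osteoclasts. It had 18.9, 19.7 and 21.0 CPM in the anterior and 3.59, 2.88 and 2.81 CPM in the posterior libraries. The libraries of the regions lay far apart, with 19.9 ± 1.04 CPM against 3.09 ± 0.43 CPM (SD, n = 3 each). The log2 fold change was -2.68 (SE 0.16, adjusted p = 0.000166 in edgeR), a 6.42-fold difference of the means, and it stayed between -2.80 and -2.47 under every alternative run.

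Mmp9 (ENSMUSG00000017737.3, chromosome 2, 164940780 to 164955850) encodes a gelatinase made by osteoclasts and also by neutrophils. It had 62.0, 68.7 and 95.2 CPM in the anterior and 11.2, 23.8 and 21.4 CPM in the posterior libraries. All anterior libraries lay above all posterior ones, and anterior replicate 3 was the highest. The log2 fold change was -2.00 (SE 0.29, adjusted p = 0.00633 in edgeR). It was -2.74 with the library-group term and -1.80, still called, without anterior replicate 3. That library was also the highest for neutrophil transcripts. The summed level of 8 neutrophil markers was between 2.10 and 13.7 CPM in the anterior and between 0.971 and 1.85 CPM in the posterior libraries, with S100a9 at 52 counts in anterior replicate 3 and between 5 and 16 in the other libraries. Ly6g, a defining neutrophil gene, had 0 counts in every library, 7 of the 8 markers were too low to be tested and S100a9 was not called (adjusted p = 0.202 in edgeR). The part of neutrophils in the Mmp9 difference was not tested.

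Ctsk (ENSMUSG00000028111.5, chromosome 3, 95499256 to 95509362) encodes cathepsin K, the main collagen-degrading protease of osteoclasts, which fibroblasts and cells of the periosteum also make. It had 64.3, 65.5 and 74.8 CPM in the anterior and 93.5, 95.8 and 119 CPM in the posterior libraries. The direction is opposite to that of Acp5, and the regions did not overlap. The log2 fold change was 0.59 (SE 0.12, adjusted p = 0.0304 in edgeR), a 1.51-fold difference of the means. The log2 fold change lay between 0.47 and 0.66 when 1 library was left out, but the call was lost in 5 of these 6 fits. The adjusted p was 0.145, 0.149 and 0.0685 without anterior replicate 1, 2 or 3, and 0.0703 and 0.0618 without posterior replicate 2 or 3, while without posterior replicate 1 it was 0.00167. With the library-group term the log2 fold change was 0.46.

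Markers of other cell types differed between the same regions as Ctsk. Of 6 mesenchyme markers, all tested, Pdgfra and Twist1 were called toward the posterior palate (log2 fold changes 1.06 and 0.74, adjusted p = 0.0406 and 0.0129 in edgeR), where 4.87% of all genes were, and Prrx1 toward the anterior palate (-1.34, adjusted p = 0.000604), where 2.59% were. The Pdgfra log2 fold change was 0.38 with the library-group term. Its call was lost with limma-voom, with the replicate block and without any single library other than posterior replicate 1 (adjusted p up to 0.165), and the Twist1 call without anterior replicate 1 (0.0801) or 2 (0.0787). The summed mesenchyme level was 1702 to 1836 CPM in the anterior and 1402 to 1734 CPM in the posterior libraries. Of 7 chondrocyte markers 5 were tested, and Col2a1 and Col9a1 were called toward the posterior palate (log2 fold changes 2.57 and 2.67, adjusted p = 0.000517 and 0.0147), the latter not without anterior replicate 2 (0.0791) or 3 (0.0722). The chondrocyte sum was 142 to 185 CPM in the anterior and 534 to 669.7 CPM in the posterior libraries. All 8 skeletal muscle markers were called toward the posterior palate (3 of them passed the filter through posterior libraries alone), with sums of 6.06 to 10.6 CPM against 521 to 914 CPM. The part of these cells in the Ctsk difference was not tested.

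Per kilobase of exon, a scale on which levels can be set side by side between genes, Ctsk was the highest of the 35 genes in both regions, with 45.1 CPM per kb in the anterior and 68.0 CPM per kb in the posterior palate. Mmp9 had 21.3 and 5.31 CPM per kb, Acp5 9.78 and 1.52, and Atp6v0d2 2.02 and 0.0183. Dcstamp and Ocstamp were at 0.471 and 0.364 CPM per kb in the anterior palate, the lowest of the called osteoclast genes there.

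Itgb3 (ENSMUSG00000020689.5, chromosome 11, 104608000 to 104670476) encodes the beta-3 integrin, which osteoclasts use to attach to bone and which platelets and endothelial cells also carry. It had 13.03, 11.6 and 12.002 CPM in the anterior and 22.1, 22.7 and 22.1 CPM in the posterior libraries. The spread within a region was small beside the difference between them, at 12.2 ± 0.732 CPM against 22.3 ± 0.337 CPM (SD, n = 3 each). The log2 fold change was 0.87 (SE 0.11, adjusted p = 0.00418 in edgeR). Leaving aside the library-group term, the call held in every alternative run. Itga2b, the platelet partner of this integrin, was not called (log2 fold change 0.14, adjusted p = 0.758 in edgeR), and the summed level of 8 megakaryocyte and platelet markers was 5.66 to 6.89 CPM in the anterior and 4.11 to 11.4 CPM in the posterior libraries. Of these 8 markers 2 were tested and neither was called, the other being Ppbp. The 8 endothelial markers summed to 462 to 481 CPM in the anterior and 406 to 652 CPM in the posterior libraries, 6 with a positive log2 fold change and none called by edgeR (1 at an unadjusted p-value below 0.05). That gene was Kdr, a receptor of vascular endothelium (log2 fold change 0.72, SE 0.24, adjusted p = 0.119 in edgeR), which was called by DESeq2 (0.0338), without the low-count filter (0.0246) and without posterior replicate 1 (3.5e-05), and was at 0.03 with the library-group term. The part of platelet or endothelial cells in the Itgb3 difference was not tested.

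The receptor and the transcription factor of osteoclast formation were not called with all 6 libraries. Nfatc1, the factor that drives osteoclast differentiation and also acts in endothelial cells, had 36.2, 37.1 and 36.0 CPM in the anterior and 32.4, 30.8 and 29.3 CPM in the posterior libraries. Its libraries did not overlap, but the difference was not called (log2 fold change -0.24, SE 0.09, adjusted p = 0.165 in edgeR), except without posterior replicate 1 (adjusted p = 0.0206). Tnfrsf11a had 6.36, 5.51 and 4.66 CPM in the anterior and 4.26, 3.89 and 4.38 CPM in the posterior libraries. The highest posterior library of this receptor gene lay just under the lowest anterior one, and it was not called (log2 fold change -0.40, SE 0.19, adjusted p = 0.242 in edgeR). Slc9b2, a sodium/proton exchanger gene induced in osteoclasts, had 2.65, 2.90 and 5.96 CPM in the anterior and 1.87, 1.01 and 1.92 CPM in the posterior libraries. Anterior replicate 3 stood above the others, and Slc9b2 was not called (log2 fold change -1.25, SE 0.41, adjusted p = 0.117 in edgeR), except without posterior replicate 1 (adjusted p = 0.039). Without anterior replicate 3 its log2 fold change was -0.79 (adjusted p = 0.302). Calcr, the calcitonin receptor, had between 0 and 7 counts per library, and no regional difference was detectable at this depth.

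Outside the set, the ligand and its decoy were examined because they partner the receptor RANK. Tnfsf11, which encodes RANKL, had 35, 69 and 46 counts in the anterior and 19, 30 and 29 in the posterior libraries. The regions did not overlap, yet the difference was not called (log2 fold change -1.06, SE 0.31, adjusted p = 0.0897 in edgeR), except without posterior replicate 1 (adjusted p = 0.0447). Tnfrsf11b, which encodes the decoy receptor osteoprotegerin, had 107, 94 and 87 counts in the anterior and 100, 238 and 355 in the posterior libraries. Only posterior replicates 2 and 3 stood above the anterior libraries. With all libraries the Tnfrsf11b log2 fold change was 1.13 (SE 0.38, adjusted p = 0.128 in edgeR). The library-group term sets posterior replicate 1 alone (7.47 CPM) against the anterior libraries (mean 7.48 CPM). The value of -0.0008 with this term restates that comparison and does not test the regional difference. DESeq2 called Tnfrsf11b (adjusted p = 0.0335), as did edgeR without the low-count filter (0.0238) or without posterior replicate 1 (0.000396).

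Of 24 further genes of the osteoclast pathway and of resorption, 21 were tested, 10 with a positive and 11 with a negative log2 fold change, and their median was -0.02 against -0.004 over all genes tested. Of the 21, 1 was called, toward the anterior palate, where 2.59% of all genes were. This was Cd44, a hyaluronan receptor of many cell types, with 114, 115 and 101 CPM in the anterior and 46.4, 50.7 and 67.3 CPM in the posterior libraries (log2 fold change -1.01, SE 0.15, adjusted p = 0.00721 in edgeR). Car2, the carbonic anhydrase that supplies protons for acid secretion, had 11.0, 13.9 and 24.4 CPM in the anterior and 8.74, 4.32 and 4.72 CPM in the posterior libraries. It lay above in all anterior libraries and was not called (log2 fold change -1.47, SE 0.37, adjusted p = 0.0591 in edgeR), although DESeq2 called it (adjusted p = 0.00202), as did edgeR without the low-count filter (0.00314) or without posterior replicate 1 (0.00324).

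Osteoblast markers were examined because osteoclasts work on bone. Of 9 osteoblast markers 7 were tested, 6 with a negative log2 fold change, and their median was -1.35 against -0.004 over all genes tested. For 5 of them the regions did not overlap, all with the anterior palate higher, where 13.3% of all genes were, whereas Spp1 and Phex overlapped. The summed level of the 9 markers was 1990.2 to 3593 CPM in the anterior and 295 to 1848 CPM in the posterior libraries. Dmp1, a matrix gene, was called toward the anterior palate, 1 of 7 where 2.59% of all genes were. It lost this call under the replicate block and without any single library other than posterior replicate 1, with adjusted p-values of up to 0.137. Sp7, a transcription factor gene of osteoblasts, was not called (log2 fold change -1.39, SE 0.38, adjusted p = 0.0767 in edgeR). DESeq2 called it (adjusted p = 0.0015), as did edgeR without the low-count filter (0.00356) and without posterior replicate 1 (0.0266) or 3 (0.0316). Ibsp, a bone matrix gene, had 2687, 2018 and 1400.2 CPM in the anterior and 17.9, 142 and 1277 CPM in the posterior libraries. Its posterior libraries differed widely, with posterior replicate 3 close to anterior replicate 3. Ibsp was not called (adjusted p = 0.309 in edgeR), except without posterior replicate 3 (0.0353). In posterior replicate 3 Dcstamp, Ocstamp and Atp6v0d2 had 0 counts and Acp5 was at 2.81 CPM. The part of bone amount in the osteoclast differences was not tested.

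**Figure D2:**
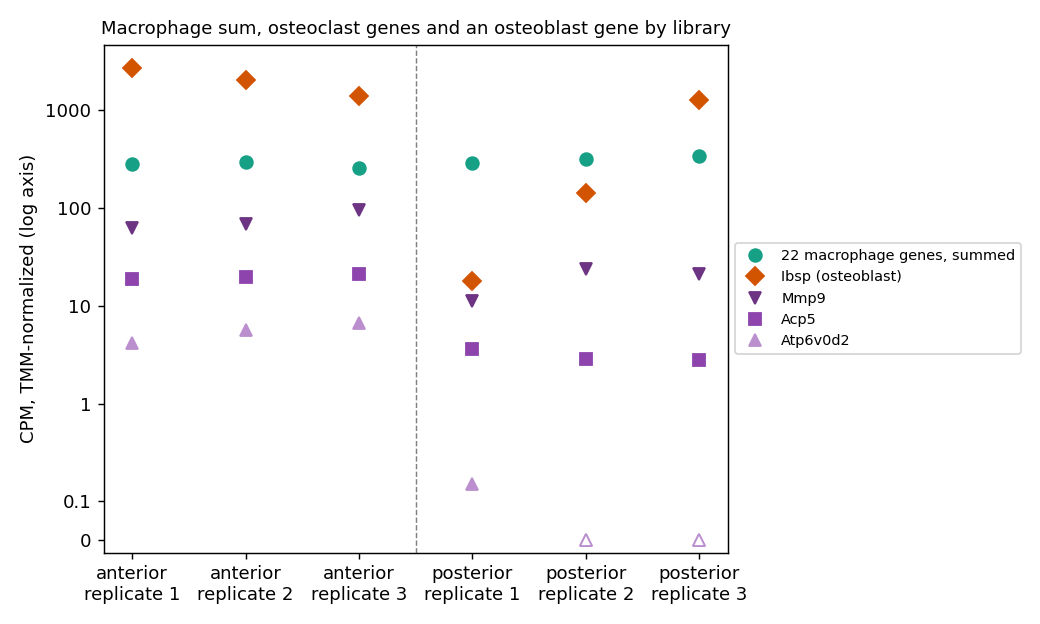
Normalized level (CPM, log axis, with 0 drawn at the foot) in each library of the summed 22 macrophage genes, of the osteoblast gene Ibsp and of the osteoclast genes Mmp9, Acp5 and Atp6v0d2, with a dashed line between the regions. The macrophage sum stays between 256 and 338 CPM, whereas Acp5 and Atp6v0d2 are low in all 3 posterior libraries, and Ibsp runs from 17.9 to 1277 CPM among these 3 libraries.

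The summed macrophage level overlapped between the regions. Of the 22 genes 21 were tested and 0 were called by edgeR's test as described above, where 7.46% of all genes were. Of the 21, 7 had an unadjusted p-value below 0.05, against 25.2% of all genes tested. C1qa, C1qb, C1qc and Mrc1 among the 7 were higher in the posterior palate (15.9% of all genes) and Cd68, Lyz2 and Tyrobp in the anterior palate (9.32% of all genes). DESeq2 called 1, Mrc1, where it called 12.6% of all genes, edgeR without the low-count filter also called Mrc1 (7.14% of all genes), and limma-voom called 0. With the library-group term 1 was called, C1qc, and 7.61% of all genes. Of the 21, 12 had a positive and 9 a negative log2 fold change, where 49.6% of all genes had a positive one, and the median was 0.06 (range -0.61 to 1.05) against -0.004 over all genes. For 11 of the 21 the 2 regions had no overlapping library values, against 28.0% of all genes. Of these, 4 were higher in the anterior palate (13.3% of all genes) and 7 in the posterior palate (14.7% of all genes). The summed level of the 22 genes was 281, 299 and 256 CPM in the anterior and 286, 314 and 338 CPM in the posterior libraries, which overlapped. Macrophage transcripts were counted in both regions, with 20 of the 22 genes at 10 or more counts in every library. Itgam fell to 9 counts in anterior replicate 3, and Cd163 had between 0 and 2 counts per library. Leaving out posterior replicate 1 changed the picture most, with 8 macrophage genes called, Spi1, Laptm5, Lyz2 and Cd68 toward the anterior (adjusted p = 0.037, 0.0372, 0.0413 and 0.0147) and Ptprc, Mrc1, C1qb and Adgre1 toward the posterior palate (adjusted p = 0.0485, 0.000376, 0.0206 and 0.00822), but 46.6% of all genes were called in that fit.

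The receptor and the lineage factor were examined first. Csf1r, the receptor on which macrophages depend, had 33.2, 33.7 and 32.4 CPM in the anterior and 27.9, 35.7 and 34.8 CPM in the posterior libraries. The regions overlapped and the log2 fold change was -0.01 (SE 0.12, adjusted p = 0.961 in edgeR, not called), or -0.24 with the library-group term. Spi1, which encodes the myeloid transcription factor PU.1, had 6.13, 8.34 and 5.70 CPM in the anterior and 5.45, 4.68 and 3.15 CPM in the posterior libraries. In the main fit Spi1 had the most negative log2 fold change of the macrophage genes tested, -0.61 (SE 0.26, adjusted p = 0.201 in edgeR). It was not called with all 6 libraries. Without posterior replicate 3 it was at -0.41, behind Cd68 at -0.60, and with the library-group term at -0.31. The pan-leukocyte phosphatase gene Ptprc, the integrin gene Itgam and the haematopoietic lysosomal membrane gene Laptm5 each overlapped between the regions, with log2 fold changes of 0.36, -0.25 and -0.21 and none called with all 6 libraries. With the library-group term these were -0.39, -0.60 and -0.05.

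Csf1, the growth factor that binds Csf1r, had 24.3, 26.8 and 21.0 CPM in the anterior and 29.7, 38.3 and 45.2 CPM in the posterior libraries. All posterior libraries lay above all anterior ones, at 37.7 ± 7.77 CPM against 24.0 ± 2.94 CPM (SD, n = 3 each), yet Csf1 was not called (log2 fold change 0.65, SE 0.17, adjusted p = 0.0692 in edgeR). DESeq2 called it (adjusted p = 0.0159), as did edgeR without the low-count filter (0.0205) or without posterior replicate 1 (0.00147), and with the library-group term its log2 fold change was 0.30 (adjusted p = 0.349). Il34, the other ligand of the receptor, had between 1 and 9 counts per library and was not tested.

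Mrc1 had the largest log2 fold change toward the posterior palate among the macrophage genes tested. Mrc1, the mannose receptor, had 27.9, 28.3 and 20.3 CPM in the anterior and 30.9, 56.3 and 71.6 CPM in the posterior libraries. Posterior replicate 1 lay close to the anterior libraries, and the Mrc1 log2 fold change of 1.05 (SE 0.29) was not called (adjusted p = 0.0784 in edgeR). With the library-group term, which leaves posterior replicate 1 alone, Mrc1 was at 0.27. DESeq2 called it (adjusted p = 0.00607), as did edgeR without the low-count filter (0.0062) or without posterior replicate 1 (0.000376). Mrc1 is also made by lymphatic endothelium, whose 5 markers summed to 109 to 115 CPM in the anterior and 162 to 173 CPM in the posterior libraries. Of these 5, 2 were called toward the posterior palate, where 4.87% of all genes were, namely Flt4 and Ccl21a (log2 fold changes 0.90 and 2.46, adjusted p = 0.027 and 0.00134 in edgeR). Prox1, the defining transcription factor of lymphatic endothelium, had 19.4 ± 3.04 CPM in the anterior and 16.7 ± 3.74 CPM in the posterior libraries (SD, n = 3 each) and was not called (log2 fold change -0.22). Leaving aside the library-group term, the Ccl21a call held in every alternative. Flt4 lost its call without any single library other than posterior replicate 1 (adjusted p up to 0.128). Among the alternatives that kept all libraries, the Flt4 log2 fold change was as low as 0.46. The part of lymphatic cells in the Mrc1 values was not tested.

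C1qa, C1qb and C1qc, which encode the chains of complement C1q and lie next to each other on chromosome 4, shared a direction. C1qb had 14.7, 15.96 and 16.5 CPM in the anterior and 21.6, 20.1 and 20.9 CPM in the posterior libraries. The regions did not overlap for any of these 3 genes, and the log2 fold changes were 0.47, 0.41 and 0.39 for C1qa, C1qb and C1qc, with adjusted p-values of 0.168, 0.0729 and 0.116 in edgeR. With the library-group term, which leaves posterior replicate 1 alone, the C1qc log2 fold change was 0.55. Cx3cr1, the receptor of the chemokine fractalkine, Adgre1, an adhesion receptor of tissue macrophages, Fcgr3, an Fc receptor, and Trem2, a lipid-sensing receptor, had log2 fold changes of 0.32, 0.40, 0.27 and 0.27. With the library-group term Adgre1 was at 0.04. The libraries of the regions overlapped for Adgre1 and not for the other 3, and none was called with all 6 libraries. Aif1, a cytoskeletal marker of macrophages, overlapped at a log2 fold change of 0.04.

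**Figure D3:**
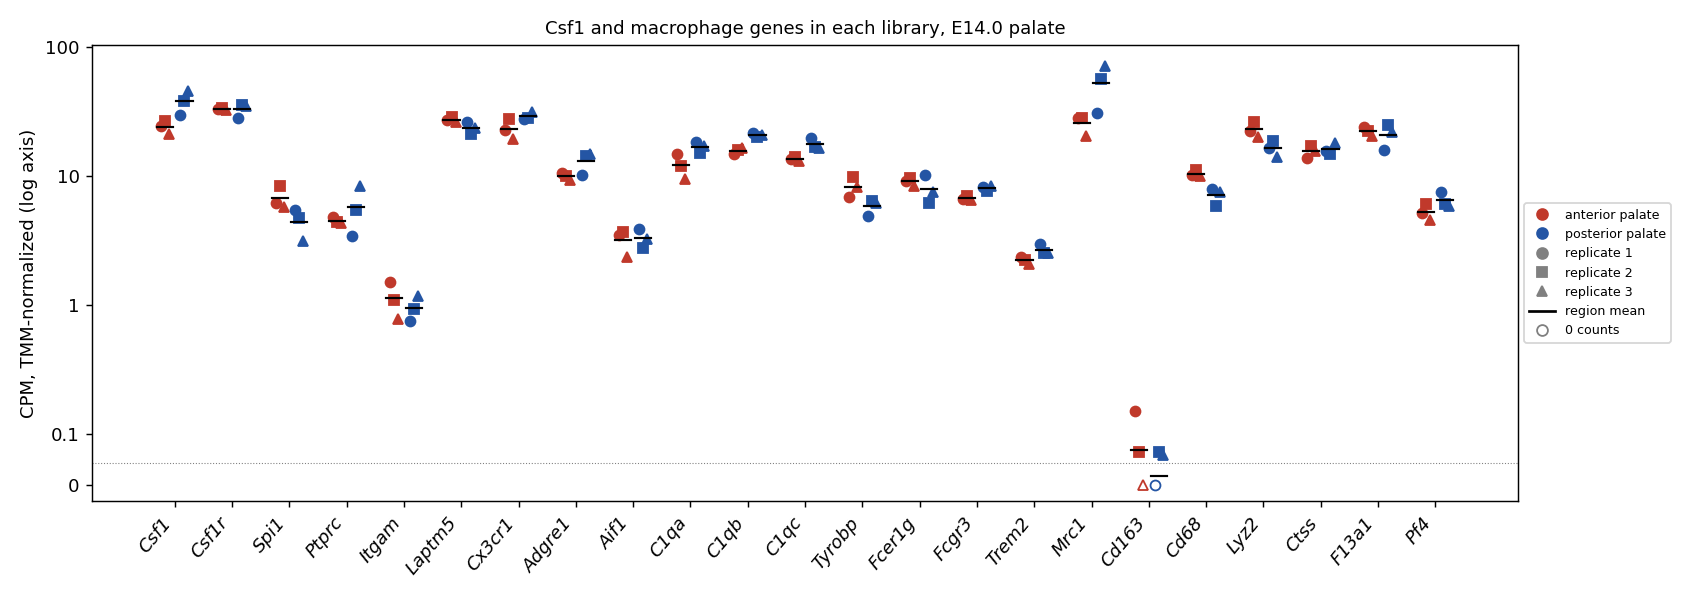
Normalized level (CPM, log axis, with 0 drawn below a dotted line) of Csf1 and the 22 macrophage genes in each of the 3 anterior and 3 posterior libraries, with the region mean as a bar. Csf1r is level between the regions, Mrc1 and the C1q genes lie higher in the posterior libraries and Cd68, Lyz2, Tyrobp and Spi1 higher in the anterior libraries.

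Cd68, Lyz2 and Tyrobp had negative log2 fold changes. Cd68, a lysosomal membrane glycoprotein gene, had 10.2, 11.0 and 9.93 CPM in the anterior and 7.92, 5.84 and 7.53 CPM in the posterior libraries. Lyz2, which encodes lysozyme, had 22.3, 26.3 and 20.1 CPM in the anterior and 16.4, 18.7 and 14.0 CPM in the posterior libraries, and its near-identical neighbour Lyz1 had at most 1 count in any library. Tyrobp, the signalling adaptor shared by macrophage and osteoclast receptors, had 6.89, 9.72 and 8.20 CPM in the anterior and 4.86, 6.41 and 6.16 CPM in the posterior libraries. The regions did not overlap for these 3 genes, whose log2 fold changes were -0.55, -0.49 and -0.51 with adjusted p-values of 0.0975, 0.115 and 0.168 in edgeR, so none was called. Osteoclasts also express Cd68 and Tyrobp, and the part of osteoclast RNA in their values was not tested. Fcer1g, the other adaptor of the pair, overlapped at a log2 fold change of -0.19, and its sign turned with the library-group term (0.16).

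The remaining macrophage genes overlapped between the regions. Ctss, the lysosomal protease cathepsin S, had a log2 fold change of 0.06. F13a1, a coagulation factor gene of tissue macrophages, had one of -0.09 (-0.48 with the library-group term). Pf4, a chemokine gene of macrophages and megakaryocytes, had one of 0.29. Per kilobase of exon, the highest macrophage genes were Lyz2 (17.4 CPM per kb) and C1qb (14.4) in the anterior palate and C1qb (19.2) and C1qa (16.1) in the posterior palate.

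Further macrophage genes gave a like picture. Of 31 other macrophage and monocyte genes 28 were tested, 15 with a positive and 13 with a negative log2 fold change, with a median of 0.04. Fcrls, an Fc receptor-like gene of tissue macrophages, was the 1 gene called, toward the posterior palate, where 4.87% of all genes were (14.996, 17.6 and 14.1 CPM against 24.4, 24.6 and 21.0 CPM, log2 fold change 0.59, adjusted p = 0.0417 in edgeR). It lost the call under the replicate block (adjusted p = 0.0649) and without any single library other than posterior replicate 1 (up to 0.170). Among 8 chemoattractant genes, 6 of them tested, Ccl9 was the 1 called, toward the anterior palate, where 2.59% of all genes were. This chemokine, which osteoclasts themselves make, had 53, 71 and 63 counts in the anterior and 15, 28 and 32 in the posterior libraries. The regions did not overlap, with a log2 fold change of -1.44 (SE 0.30, adjusted p = 0.0276 in edgeR), and the call was lost without any 1 anterior replicate (adjusted p = 0.0676, 0.118 and 0.101) or without posterior replicate 2 (0.0725).

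Set side by side, edgeR's test with region as the single term called 5 osteoclast genes toward the anterior and 2 toward the posterior palate. Of all genes, 2.59% and 4.87% were called in these directions. The Ctsk call held in 1 of the 6 fits without 1 library. No macrophage gene was called, where 7.46% of all genes were. DESeq2 and edgeR without the low-count filter called Mrc1 toward the posterior palate, where they called 12.6% and 7.14% of all genes in either direction. The difference between the lists was not tested. Dcstamp, Ocstamp and Atp6v0d2 entered the test through high anterior counts alone, which moves the median of the tested osteoclast genes toward the anterior palate. With them, these genes had a median log2 fold change of -1.25, also with Dcstamp at its bound of -4.15, and ran from that direction to 0.87 for Itgb3. The tested macrophage genes had a median of 0.06. Where every library had to reach 10 counts, which leaves these 3 genes out, the osteoclast median was -0.33, and without the low-count filter it was -0.82. Relative to the summed macrophage level of the same library, Acp5 amounted to 6.75%, 6.58% and 8.21% in the anterior and 1.26%, 0.918% and 0.831% in the posterior libraries. Itgb3 amounted to 4.64%, 3.88% and 4.70% in the anterior and 7.74%, 7.23% and 6.55% in the posterior libraries. On this scale Acp5 was higher in every anterior and Itgb3 higher in every posterior library. The macrophage sum ran only from 256 to 338 CPM, so this ordering restates that of the CPM values.

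**Figure D4:**
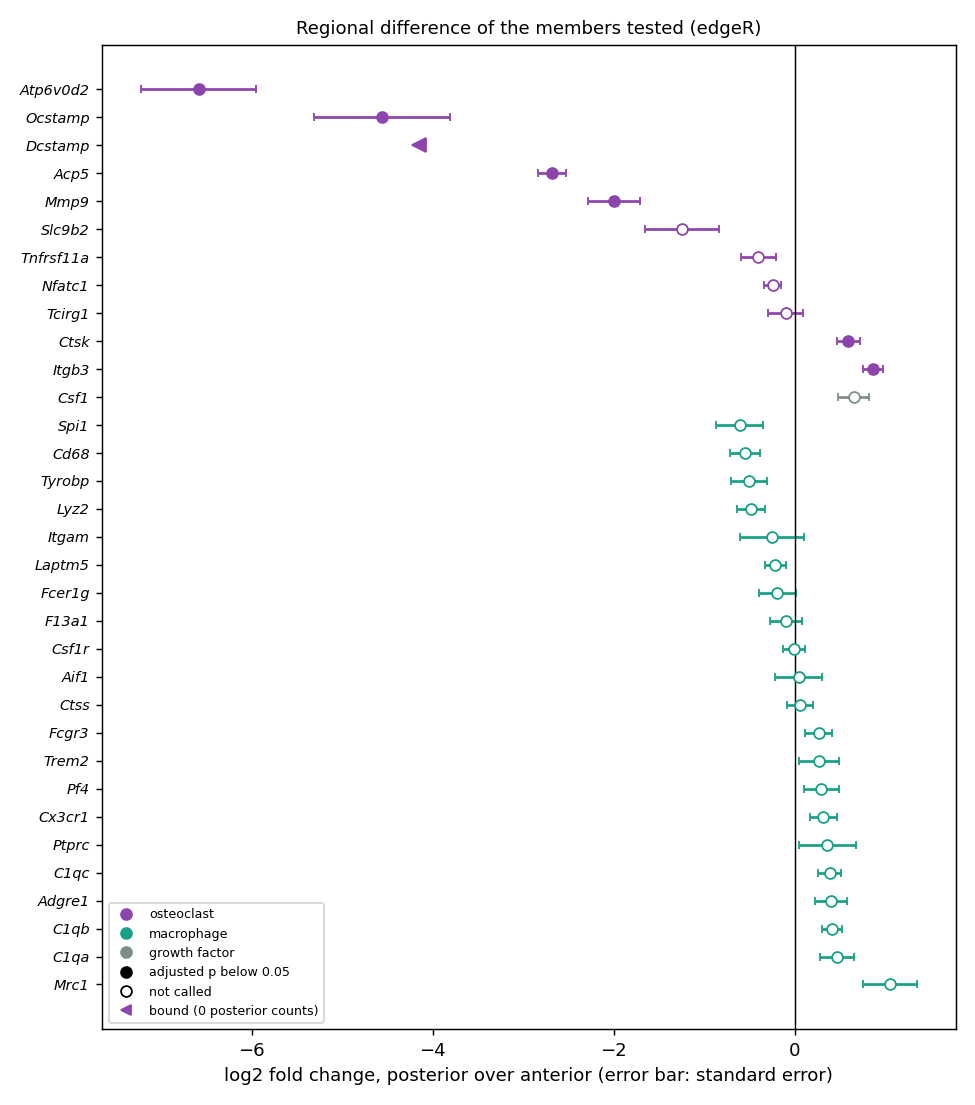
Log2 fold change (posterior over anterior) of the 33 genes tested, with SEs, grouped into osteoclast genes, Csf1 and macrophage genes, where filled symbols were called and a triangle marks the bound for Dcstamp. The 5 called osteoclast genes on the left lie at -2.00 or below, Ctsk and Itgb3 lie at 0.59 and 0.87, and the macrophage genes lie between -0.61 and 1.05 with none called in this edgeR fit.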

How the data were processed

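Bulk RNA-seq libraries, 3 of the anterior and 3 of the posterior palate, were grouped by the region in their labels. For every library the authors deposited raw gene-level counts, unstranded and strand by strand, laid out as STAR does. The submitters' notes name mm10, HISAT2, StringTie and DESeq2 (version 1.30.1), and the annotation version is not given in the sources used here. The reverse-stranded counts were used, and exceeded the opposite strand 19.0- to 23.1-fold. Symbols were paired with 52073 of 56691 identifiers, and positions and exon lengths came from GENCODE M21 (GRCm38). Reads outside genes stayed out of library sizes (no feature 5.92% to 8.71% of reads, ambiguous 1.84% to 1.99%).

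The test used edgeR 4.0.16 (R 4.3.3) and had region as its single term. Alternatives were DESeq2 1.42.0, limma-voom (limma 3.58.1), RLE normalization, the unstranded counts, testing every gene with a count, requiring 10 counts in all 6 libraries, a block for the replicate number, a term for posterior replicates 2 and 3 (the libraries with the fewest multi-mapping reads), and leaving out each replicate. The term for posterior replicates 2 and 3 leaves posterior replicate 1 alone against the anterior libraries. Each leave-one-out fit kept the genes of the fit with all libraries. The edgeR, replicate-block, DESeq2 and limma-voom fits were also run on simulated data. Those data held no outlying library, so they do not show how the fits behave with posterior replicate 1. Replicates differed by more than sampling noise (chi-square per gene 3.43 to 67.3). All 35 genes are named, and genes of other lists where called or where they define the list. The members, lists and alternatives were chosen with earlier results of these data known, so no list is independent evidence.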

Additional observations from a re-analysis of the deposited data

How the results depend on the processing

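Over all genes, 1978 were called with DESeq2 and 2162 without the low-count filter, against 1169, and leaving out 1 replicate gave between 528 and 7309, the highest without posterior replicate 1. With the replicate number as a block 829 genes were called, 237 toward the anterior and 592 toward the posterior palate, with 7 osteoclast and 0 macrophage genes among them. Same-numbered libraries did not deviate together (correlations -0.053, 0.045 and 0.036), so the numbers do not pair the libraries. The count of called macrophage genes, 0, became 1 with DESeq2 (Mrc1) and 1 without the low-count filter (Mrc1), and lay between 0 and 8 when 1 replicate was left out. The count of called osteoclast genes, 7, became 4 when every library had to reach 10 counts, and lay between 5 and 9 when 1 replicate was left out. The macrophage median of 0.06 moved to 0.159 when every library had to reach 10 counts and lay between -0.0143 and 0.169 without 1 replicate. The osteoclast median of -1.25 moved to -0.82 without the low-count filter and to -0.33 when every library had to reach 10 counts, and lay between -1.46 and -0.79 without 1 replicate. With the library-group term, which leaves posterior replicate 1 alone against the anterior libraries, the sign turned for Fcer1g (0.16), Ptprc (-0.39) and Tnfrsf11b (-0.0008). Without 1 replicate, the ranges crossed 0 for Csf1r (-0.0781 to 0.0925), Aif1 (-0.133 to 0.169), Ctss (-0.0251 to 0.132), F13a1 (-0.238 to 0.0631), Itgam (-0.447 to 0.0198), Ptprc (-0.0143 to 0.625), Tcirg1 (-0.237 to 0.082) and Itga2b (-0.0654 to 0.379), none of them called with all libraries. Leaving aside the library-group term, Acp5, Mmp9, Atp6v0d2, Dcstamp and Itgb3 kept their calls in every alternative that tested them. The cause of these changes was not tested. Depth limits Dcstamp, Ocstamp, Atp6v0d2, Calcr and Cd163, whose lowest libraries had 0 counts.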

Other observations

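Mast cell and lymphocyte transcripts were also present at low levels. The summed level of 6 mast cell markers was 36.1 to 43.6 CPM in the anterior and 40.4 to 47.0 CPM in the posterior libraries, with 4 tested and 0 called by edgeR (0 at an unadjusted p-value below 0.05), and Cpa3, the mast cell carboxypeptidase, had between 93 and 193 counts per library. The summed level of 8 lymphocyte markers was 2.12 to 3.70 CPM in the anterior and 1.08 to 1.85 CPM in the posterior libraries. Of these 1 was tested, Cd79b, with 1.59, 2.47 and 1.73 CPM in the anterior and 0.971, 0.865 and 1.44 CPM in the posterior libraries. The regions did not overlap, with the anterior palate higher, where 13.3% of all genes were. Cd79b was not called (log2 fold change -0.82, SE 0.32, adjusted p = 0.172 in edgeR). The natural killer cell gene Ncr1 had 0 counts in every library.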
